A study of Mus musculus with 2 samples.

Results

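Marco-panel cells are lymph-node lymphatic endothelial cells whose transcripts of Marco, Flrt3 and C1ql2 outnumbered those of every other lymphatic marker panel. A cell was called lymphatic when the summed UMIs (unique molecular identifiers, each standing for 1 RNA molecule) of Prox1, Pdpn, Mmrn1 and Lyve1 reached 2 and exceeded the sum of Flt1, Ly6c1 and Cd34. It was called a member when Marco, Flrt3 and C1ql2 together reached 2 UMIs and lay above the sums of the floor panel (Coch, Bmp2, C1ql3), the ceiling panel (Ackr4, Gdf10, Parm1), the Ptx3 panel (Mrc1, Reln, Ptx3) and the Nts panel (Nts, Pkhd1l1, Fgl2). Of 10612 barcodes, 9919 passed the filters on genes, mitochondrial UMIs and hashtags, 3779 were lymphatic and 517 were members. The other lymphatic cells comprised 1138 floor, 1298 ceiling, 295 Ptx3 and 329 Nts cells and 202 cells with no single leading panel. Since expression of these 22 genes chose the cells, their levels are given below as a description.

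The study compared endothelial cells of WT and Xbp1-KO mice, all treated with tamoxifen, in peripheral and in mesenteric lymph nodes. Both 3′ single-cell libraries pooled 4 hashtagged samples of the same kinds, 1 for each tissue in either genotype, so that each group of tissue and genotype has 1 pool per library and the series holds 8 pools. The labels give neither the Cre line, the cell type in which Xbp1 was deleted, the sex nor the age, and they do not say how many animals entered a pool. P-values therefore measure the spread between pools. The 2 pools of each group also differed in X- and Y-linked transcripts, as given with the genotype results, and the spread includes that difference. Library 1 held 430 members and library 2 held 87. Within library 1, the WT mesenteric, Xbp1-KO mesenteric, WT peripheral and Xbp1-KO peripheral pools held 83, 49, 109 and 189 members. In library 2 they held 7, 45, 17 and 18. The pool of 7 cells, WT mesenteric nodes of library 2, was left out of the fits, so every WT mesenteric mean below rests on 1 pool unless stated otherwise.

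Lymph enters a node through the subcapsular sinus and leaves through medullary sinuses. The lymphatic endothelium that lines these spaces takes up particles and proteins from lymph and positions sinus macrophages. Marco encodes a class A scavenger receptor that binds bacteria, lipoproteins and particles, and was first known from macrophages. Flrt3 encodes an adhesion protein that binds latrophilins and UNC5 receptors, and C1ql2 a secreted C1q-like protein. XBP1 is the transcription factor of the IRE1 branch of the unfolded protein response. Position in the node cannot be read from dissociated cells, so "medullary" was not checked here.

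Marco lies at chr1:120474538-120505024 on the minus strand and C1ql2 at chr1:120340582-120343174 on the plus strand (GRCm38, GENCODE M21). The genes are 131363 bases apart with 1 annotated gene between them. Flrt3 lies at chr2:140650914-140671469 on the minus strand. The promoters of these genes are shown because their products define the cells. Each run holds 250 bases before and 50 after the RefSeq start in GRCm38.p6, read along the gene's own strand, with CG dinucleotides in capitals. They cover chr1:120504975-120505274 (Marco, minus strand), chr2:140671427-140671726 (Flrt3, minus strand) and chr1:120340332-120340631 (C1ql2, plus strand).
Marco: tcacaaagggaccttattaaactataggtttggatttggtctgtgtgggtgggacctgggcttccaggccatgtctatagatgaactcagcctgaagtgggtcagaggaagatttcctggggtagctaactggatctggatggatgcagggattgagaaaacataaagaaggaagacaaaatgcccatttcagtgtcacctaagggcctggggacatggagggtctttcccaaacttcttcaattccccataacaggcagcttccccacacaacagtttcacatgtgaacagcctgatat
Flrt3: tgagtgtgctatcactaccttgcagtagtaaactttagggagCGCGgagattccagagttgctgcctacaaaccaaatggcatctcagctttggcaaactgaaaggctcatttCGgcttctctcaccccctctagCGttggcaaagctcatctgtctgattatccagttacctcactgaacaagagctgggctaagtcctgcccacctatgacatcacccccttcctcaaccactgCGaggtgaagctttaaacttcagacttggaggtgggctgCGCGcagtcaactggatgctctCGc
C1ql2: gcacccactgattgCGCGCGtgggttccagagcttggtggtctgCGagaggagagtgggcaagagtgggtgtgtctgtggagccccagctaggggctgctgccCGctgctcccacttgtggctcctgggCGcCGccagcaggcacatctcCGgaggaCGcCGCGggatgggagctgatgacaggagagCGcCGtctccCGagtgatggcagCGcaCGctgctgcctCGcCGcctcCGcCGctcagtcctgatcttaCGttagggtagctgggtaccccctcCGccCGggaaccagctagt
The Marco promoter held 0 CG dinucleotides, that of Flrt3 8 and that of C1ql2 23, against a median of 7 over 32851 mouse promoters of the same length. GC content was 47.3%, 51.3% and 67.3% in the same order, against a median of 52.7%. Of the 15 genes of the files within 0.5 Mb of Marco, 7 had UMIs in members. Dbi, encoding acyl-CoA binding protein, stood at 932 CPM (the gene's UMIs scaled to the same total in every sum) over all members and 456 CPM over all other lymphatic cells. Steap3, a metalloreductase, stood at 9.17 and 3.07 CPM.

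Members had a median of 6122 UMIs and 2564 genes. The summed panel had a median of 26 UMIs per cell, of which Marco made up most, with a median of 22. Marco was detected in 88.8% of members, Flrt3 in 83.8% and C1ql2 in 26.3%. All 3 genes were detected in 100 cells (19.3%), Marco and Flrt3 without C1ql2 in 278 (53.8%), and Flrt3 alone in 48 (9.28%). At the edge of the rule, 13 members had a panel sum of exactly 2. Just outside it, 3 lymphatic cells had a sum of 1 above every other panel, 46 had a tied sum, and 632 had a sum of at least 2 but a higher sum in another panel. Those 632 cells had a median of 3 Marco-panel UMIs and of 0 Marco UMIs.

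Marco levels lay far apart between the classes, as the rule favours, since Marco made up most of the panel sum. Over the 7 pools with at least 10 members, the lowest, median and highest levels were 3098, 3784 and 5757 CPM. In floor cells they were 12.8, 93.6 and 166 CPM. Flrt3 was less restricted: it spanned 476 to 906 CPM in members and 218 to 490 CPM in floor cells, ranges that overlapped narrowly. C1ql2 spanned 15.6 to 209 CPM in members and 1.45 to 43.0 CPM in floor cells. Shares of cells with at least 1 Marco UMI were 11.8% of floor, 4.78% of ceiling, 12.2% of Ptx3 and 2.43% of Nts cells, and 2.54% of blood endothelial cells. The last share comes from cells that should lack the gene, at a median of 2871 UMIs per blood cell and 5630 per floor cell. Up to 66 Marco UMIs were seen in a blood endothelial cell, and the source of these UMIs was not tested.

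**Figure D1:**
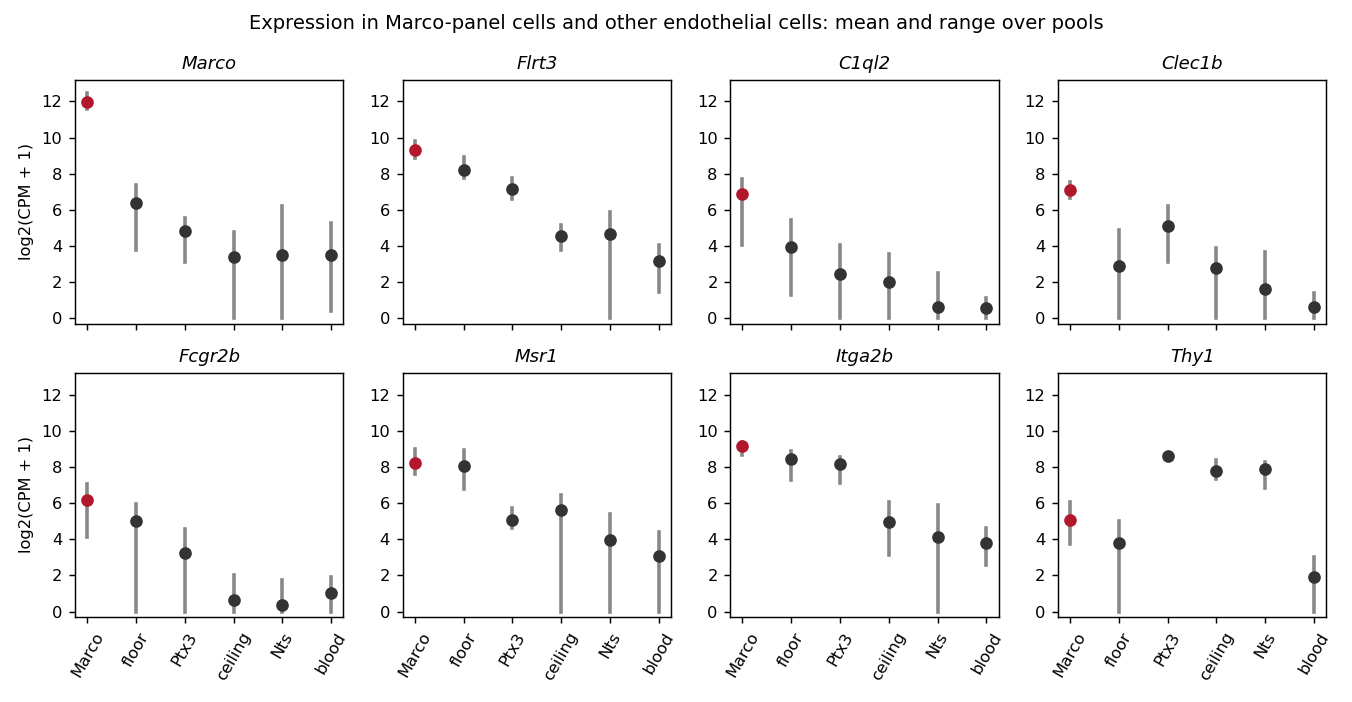
Mean (points) and range over pools (grey lines) of log2(CPM + 1) for 8 genes in Marco-panel cells (red), 4 other lymphatic classes and blood endothelial cells. Marco, by which the cells were chosen, is highest by a wide margin in Marco-panel cells, where Clec1b spans 100.5 to 188 CPM. Thy1 is low in Marco-panel and floor cells and high in Ptx3, ceiling and Nts cells.

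Members also carried RNA of the other panels. At least 1 floor-panel UMI was present in 78.3% of members and at least 1 Ptx3-panel UMI in 65.2%. For the ceiling and Nts panels the shares were 52.4% and 10.8%. Bmp2, a floor gene encoding a bone morphogenetic protein, was seen in 72.5% of members, against 98.9% of floor cells. Mrc1, the mannose receptor gene of the Ptx3 panel, was seen in 61.7% of members and 92.2% of Ptx3 cells. These shares are a description, since the rule bounds them.

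The lymphatic label was checked with genes outside the rule. Flt4, the VEGF-C receptor, ranged from 323 to 502 CPM in members and from 21.4 to 59.1 CPM in blood endothelial cells. Nrp2, its co-receptor, ranged from 233 to 393 CPM in members and from 131 to 193 CPM in blood endothelial cells. The whole lists separated the classes less. The 18 lymphatic identity genes outside the rule summed to 4848 to 6176 CPM in members and to 1546 to 10737 CPM in blood endothelial cells, where the mean was 8022 CPM in mesenteric and 2210 CPM in peripheral nodes. In mesenteric nodes that sum was thus lower in members, at a mean of 5308 CPM. The 16 blood endothelial markers outside the rule summed to 3182 to 3857 CPM in members, 2590 to 3028 CPM in other lymphatic cells and 7326 to 12694 CPM in blood endothelial cells. Because Marco is also a macrophage gene, macrophage markers were examined. Any UMI of Ptprc, Adgre1, Csf1r, C1qa, C1qb, C1qc, Lyz2 or Tyrobp was present in 36 of 517 members (6.96%), in 2.61% of other lymphatic cells and in 1.03% of blood endothelial cells. Ptprc and Adgre1 were each seen in 1 member. The summed level of the 20 macrophage and monocyte genes was 179 to 320 CPM in members and 56.2 to 182 CPM in other lymphatic cells summed together. In floor cells alone it was 77.98 to 465 CPM, overlapping members, with a mean of 252 CPM against 249 CPM in members. Siglec1 and Vsig4 were at 0 in members. Genotype and tissue results without the 36 cells are given in the closing part.

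Across 40 sums (5 lymphatic classes in 8 pools), the panel genes C1ql2 and Flrt3 followed Marco with Pearson r of 0.904 and 0.771. Among 6726 genes outside the rule with a mean of at least 20 CPM, those most like Marco included Man2a1 (0.854), Tspan7 (0.832), Lifr (0.830) and Slc16a1 (0.813). Man2a1 encodes a Golgi mannosidase, Tspan7 a tetraspanin, Lifr the leukaemia inhibitory factor receptor and Slc16a1 a lactate transporter. These correlations describe sums that share libraries and were chosen for their class, and they carry no test.

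Members were next set against the other lymphatic cells of the same pools, for genes that the rule did not use. Of the scavenger and lectin receptor genes 11 of 21 were higher in members and 4 lower, and of the lysosome and endocytosis genes 15 of 33 were higher and 5 lower. Matrix genes were lower in 17 of 28, chemokine genes in 10 of 17 and BMP and TGF-beta genes in 9 of 16. Among 10472 genes tested with edgeR's quasi-likelihood test and the pool as a block, 1122 were higher in members and 1517 lower at adjusted p under 0.05, which is 10.7% and 14.5%, together 25.2%, of all genes tested. Both sets of cells were gated from the same libraries, and genes that vary with the panels differ in part because of that gate. The other lymphatic cells are mostly floor and ceiling cells, which sets the direction for genes that mark those classes. With all sums thinned to the smallest, 878 genes were called, and in library 2 alone 715.

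Clec1b, which encodes CLEC-2, the podoplanin receptor best known from platelets, had the highest fold change among genes at 50 CPM or more. Its lowest, median and highest levels were 100.5, 140 and 188 CPM in members. In other lymphatic cells they were 2.68, 10.6 and 14.1 CPM, so the groups did not overlap. The share of all genes without overlap was not counted for this comparison, in which 25.2% of genes were called. The log2 fold change was 3.51 ± 0.15 (SE, 7 pools, edgeR adjusted p = 1.26e-19). Fcgr2b, the inhibitory Fc receptor for immunoglobulin G, was at 16.7, 62.6 and 134 CPM in members and at 0, 10.5 and 24.9 CPM in other lymphatic cells, a log2 difference of 1.93 ± 0.23. Of 21 tested scavenger and lectin receptor genes, 11 were higher and 4 lower, with a median log2 fold change of 0.30 against 0.01 for all genes. Msr1, Scarb2 and Clec4g were higher by 1.09 ± 0.11, 1.18 ± 0.11 and 0.90 ± 0.11. The lower genes included Cd36, a fatty acid and thrombospondin receptor, which spanned 66.1 to 205 CPM in members and 601 to 1205 CPM in the others (log2 −2.71 ± 0.13).

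Further genes of the highest set belong to varied functions. Pcdh15, a protocadherin of hair cell links, was 2.71 ± 0.18 log2 units higher, with a range of 19.2 to 131 CPM in members and 1.68 to 24.8 CPM in other lymphatic cells. Hpse, which encodes the heparan sulfate-cleaving heparanase, was 1.96 ± 0.14 higher. The metallothionein genes Mt1 and Mt2, which bind zinc and copper, were 1.86 ± 0.11 and 1.92 ± 0.12 higher. Mt1 had levels of 897 to 1464 CPM in members and 129 to 482 CPM in the others. Selenop, encoding a selenium transport protein, was 1.73 ± 0.09 higher, and Sfrp1, a Wnt antagonist, 1.90 ± 0.14. Xlr5c, Dnah6, Galnt15, Il13ra2, Plxdc2, Cyp4b1 and Acer3 completed the 15 leading genes, at 1.69 to 2.63. Xlr5c has a near-identical neighbour in Xlr5a, and the reads of these genes may be divided uncertainly.

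Of 33 tested lysosome and endocytosis genes, 15 were higher and 5 lower (median 0.29). Lgmn, which encodes the protease legumain, was at 694, 773 and 873 CPM in members and at 139, 233 and 325 CPM in other lymphatic cells (1.53 ± 0.09). Ctsd, encoding cathepsin D, was 1.33 ± 0.07 higher and Gla, encoding alpha-galactosidase A, 1.38 ± 0.15. Cav1, the caveolin gene, went the other way, at −2.23 ± 0.15. Complement and haemostasis genes split, with 10 higher and 8 lower of 20. Among niche cytokines, 5 were higher and 3 lower of 14. Il33 was the leading one at 1.36 ± 0.09, with 276 to 709 CPM in members and 88.9 to 244 CPM in the others, of which floor cells had 202 to 419 CPM when summed alone. Kitl, which encodes stem cell factor, was 1.05 ± 0.11 higher. Of 17 antigen presentation genes 5 were higher and 0 lower, led by Cd274, the gene of PD-L1 (0.78 ± 0.11). Cd274 in floor cells overlapped that in members, with 107 to 185 CPM against 126 to 184 CPM. Itga2b, an integrin gene also known from platelets, was at 398 to 674 CPM in members and 56.2 to 250.2 CPM in the other lymphatic cells summed together (1.51 ± 0.10). Floor cells alone had 156 to 463 CPM of Itga2b, overlapping members, and Ptx3 cells 137 to 376 CPM. It was detected in 91.3% of members, 75.8% of floor and 67.5% of Ptx3 cells, against 12.6% of ceiling and 7.60% of Nts cells.

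Matrix and basement membrane genes were mostly lower, 17 of 28 against 4 higher, with a median of −0.61. Fn1, encoding fibronectin, was at 0, 19.5 and 46.6 CPM in members and at 271, 453 and 653 CPM in other lymphatic cells, a log2 difference of −4.23 ± 0.15. Igfbp5 and Prss23 showed the greatest decreases of the named set, −6.35 ± 0.28 and −6.11 ± 0.20. Of 17 chemokine genes and scavengers, 10 were lower and 2 higher. Ccl20, the ligand of CCR6, spanned 2.74 to 41.9 CPM in members and 102 to 590 CPM in the others, and Ackr3 differed by −4.88 ± 0.27. Reads of Ccl21a and Ccl19 can be shared with their paralogues, so their values are uncertain. BMP and TGF-beta genes were lower in 9 and higher in 3 of 16. For the lymphatic identity genes outside the rule, 8 were lower and 5 higher of 18. Thy1, a surface glycoprotein, differed by −2.30 ± 0.16 and Foxc2, a valve transcription factor, by −2.57 ± 0.22.

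Among relatives and partners of the panel proteins, 2 of 8 tested genes were higher and 3 lower. Adgrl4 and Adgrl2, which encode adhesion receptors of the latrophilin family, were higher by 0.87 ± 0.14 and 0.82 ± 0.17. Flrt2, the paralogue of Flrt3, and Unc5b, a netrin receptor gene, differed by −1.51 ± 0.13 and −0.84 ± 0.12. Markers of other cells moved in part as well. Dividing cell markers were lower in 6 of 7 tested genes, mural and fibroblastic markers in 6 of 8, and their summed levels were 75.9 to 121 and 78.4 to 200.3 CPM in members. In other lymphatic cells those sums were 162 to 309 and 166 to 845 CPM. Floor cells alone had 74.9 to 117.5 CPM of dividing cell markers, overlapping members, and 270 to 663 CPM of mural and fibroblastic markers. Igkc, an immunoglobulin gene of B-lineage cells, was also among the 15 leading lower genes (−4.86 ± 0.33). The 11 lymphocyte genes, Igkc among them, summed to 0 to 27.7 CPM in members and 7.29 to 402.6 CPM in other lymphatic cells. In the latter the highest sum was 24.5 CPM among WT pools and 30.2 CPM among mesenteric pools, so the sum of 402.6 CPM came from an Xbp1-KO peripheral pool. Dissociation response genes were lower in 7 of 15 and higher in 0. The part of such cells or of their free RNA in the differences was not tested.

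**Figure D2:**
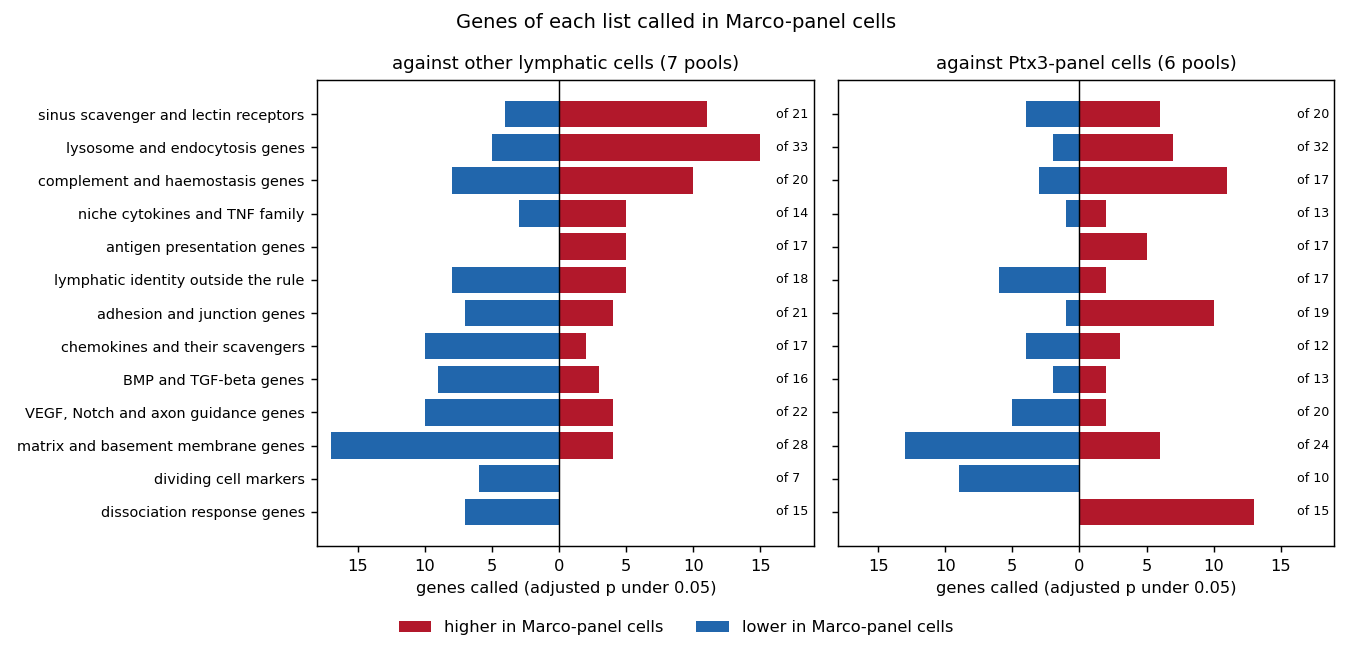
Number of genes of each list called higher (red, right) or lower (blue, left) in Marco-panel cells at adjusted p under 0.05, against other lymphatic cells and against Ptx3-panel cells, with the number tested at the right. Scavenger genes divide into 11 higher and 4 lower against other lymphatic cells and into 6 and 4 against Ptx3 cells, and matrix genes into 4 and 17 and into 6 and 13.

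Ptx3-panel cells share Lyve1 with members, at a mean of 3430 ± 979 CPM (SD, 6 pools) against 2983 ± 164 CPM (SD, 7 pools) in members. Lyve1 is a gene of the rule, so this likeness is a description and does not make Ptx3 cells the nearest class by other genes. Members were not fitted against floor cells alone, so a gene higher than in Ptx3 cells can be shared with floor cells. In 6 pools and 7498 genes, 597 genes were higher (7.96%) and 458 lower (6.11%) in members, together 14.1% of those tested. Of 20 scavenger and lectin receptor genes 6 were higher and 4 lower, and the summed level of the list overlapped, at 3868 to 4855 CPM in members and 3519 to 5159 CPM in Ptx3 cells. Complement and adhesion genes were more often higher than lower in members, and matrix and dividing cell genes more often lower. In library 2 alone 276 genes were called, with DESeq2 640, and after thinning 559.

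Msr1, which encodes another class A scavenger receptor, was at 198, 226 and 505 CPM in members. In Ptx3 cells it was at 23.2, 29.4 and 51.8 CPM, a log2 difference of 3.41 ± 0.19 (SE, 6 pools, edgeR adjusted p = 1.02e-12). Fcgr2b was higher by 3.15 ± 0.34. Clec1b was higher here too, by 1.76 ± 0.25. Msr1 also stood high in floor cells, with 107 to 493 CPM, and Fcgr2b was detected in 18.7% of floor cells against 22.8% of members. Clec1b had 0 to 29.1 CPM in floor cells. Members thus had levels near those of floor cells for Msr1 and above those of floor and Ptx3 cells for Clec1b, by ranges that did not overlap.

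Pthlh, encoding parathyroid hormone-related protein, had 172 UMIs in members and 1 in Ptx3 cells, a ratio of 99.4 (95% counting interval 17.6 to 3948). Ptn, the heparin-binding growth factor pleiotrophin, was higher by 5.27 ± 0.27, although its level in members ran from 10.97 to 491 CPM. Clu, encoding the chaperone clusterin, was higher by 3.47 ± 0.23. Csf1, the macrophage growth factor gene, was at 842 to 1194 CPM in members and 68.4 to 361 CPM in Ptx3 cells (2.14 ± 0.19). Csf1 in floor cells overlapped that in members, at 877 to 1237 CPM. Vcam1, an adhesion receptor for leukocytes, was higher by 2.08 ± 0.19 and Bst1 by 3.60 ± 0.42. Vcam1 spanned 402 to 694 CPM in members and 887 to 1604 CPM in floor cells, which had the higher levels. In all, 10 of 19 adhesion and junction genes were higher and 1 lower, and 11 of 17 complement and haemostasis genes were higher and 3 lower.

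In the other direction, Pgf, encoding placental growth factor, had 0 UMIs in members and 54 in Ptx3 cells, so that it was at least 31.2-fold lower, with a floor of 3 UMIs over the members. Angpt2, a TIE2 ligand gene, was at 0 to 21.2 CPM in members and at 92.8 to 351 CPM in Ptx3 cells (−4.20 ± 0.23). Thy1 spanned 12.5 to 67.0 CPM in members and 339 to 439 CPM in Ptx3 cells (−3.43 ± 0.18). Of 24 matrix and basement membrane genes, 13 were lower and 6 higher, including Col4a1 (−2.36 ± 0.17) and Lamb1 (−2.93 ± 0.26). Dividing cell markers were lower in 9 of 10 tested genes, and dissociation response genes were higher in 13 of 15, with a median of 1.08. Whether division or the response to tissue digestion contributes to the other differences was not tested.

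Within members, the first comparison was between tissues. Mesenteric members had more mRNA of Pdk4 and of 12 of 19 tested genes of a sterol list that was drawn up after its leading genes were seen, and peripheral members more of Postn and Fxyd6. Among 7448 genes tested over 7 pools, 73 were higher (0.98%) and 68 lower (0.913%) in mesenteric members, together 1.89% of those tested. Of these 141 genes 6 belong to the rule and are not read as results. Within WT cells alone, where 1 mesenteric pool was set against 2 peripheral pools, 21 were higher (0.282%) and 26 lower (0.349%), together 0.631%. Without library 2 the count rose to 298, and DESeq2 called 38, all of them among the 141.

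Sterol synthesis turns acetyl-CoA into cholesterol through mevalonate and is governed by SREBP2, which is encoded by Srebf2 and held back by INSIG1. Fdps, Sqle and Cyp51 were among the 10 leading mesenteric genes, and a list of 24 sterol synthesis and uptake genes was drawn up after those values were seen. Of 19 tested, 12 were higher in mesenteric members and 0 lower, against 0.98% of all genes called higher. The median was 1.73 log2 units against 0.00 for all genes. The list is a description and not independent evidence. The count was 12 as well with all 8 pools kept, with library 1 alone and with the library block. It was 5 with DESeq2 and 5 of 9 tested after thinning. Among the called genes were Fdps, Sqle, Cyp51, Insig1, Fdft1, Hsd17b7, Hmgcs1, Msmo1, Idi1 and Srebf2.

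Fdps encodes farnesyl diphosphate synthase. It stood at 113 CPM in WT and at 59.6 and 54.9 CPM in Xbp1-KO mesenteric pools, and at 150 CPM in the pool of 7 cells. In peripheral pools it stood at 10.2 and 41.9 CPM (WT) and 12.9 and 7.80 CPM (Xbp1-KO). Every mesenteric pool was above every peripheral one, as for 5.80% of all genes over the fitted pools, with a log2 difference of 2.53 ± 0.34 (SE, edgeR adjusted p = 3.00e-05). Hmgcs1, the HMG-CoA synthase gene, stood at 125, 116 and 137 CPM in the 3 mesenteric pools fitted and at 42.2, 16.7, 32.2 and 31.2 CPM in the peripheral ones (1.87 ± 0.25). Srebf2 itself stood at 115, 110 and 121 CPM against 34.9, 50.2, 36.8 and 7.80 CPM (1.73 ± 0.27). In the pool of 7 cells Srebf2 was at 18.7 CPM, within the peripheral range. In other lymphatic cells Fdps had means of 90.5 CPM in mesenteric and 35.1 CPM in peripheral nodes, and the tissue difference in members exceeded theirs by 1.01 ± 0.36 log2 units, which did not pass the test (edgeR adjusted p = 0.298).

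The promoter table held 7 of the 12 called sterol genes. All 7 contained CCAAT on one strand or the other, the letters bound by NF-Y, which 37.4% of the 32851 promoters contain. The 9 genes of the sterol list that were not called or not tested and have a promoter in the table held CCAAT as well, each at 1 start or more, so the match does not mark the called genes. The SRE-like letters TCACNCCAC, on either strand, occurred in 1 of the 7, Hmgcs1, and in 1.24% of all promoters. A match describes letters and not a bound site. The promoters of Hmgcs1, Idi1 and Insig1 are shown as examples of called genes, 5′ to 3′ along each gene's strand (plus), with these letters in capitals: ATTGG is the reverse complement of CCAAT. They cover chr13:119690101-119690400, chr13:8885356-8885655 and chr5:28071162-28071461 of GRCm38.p6 in RefSeq.
Hmgcs1: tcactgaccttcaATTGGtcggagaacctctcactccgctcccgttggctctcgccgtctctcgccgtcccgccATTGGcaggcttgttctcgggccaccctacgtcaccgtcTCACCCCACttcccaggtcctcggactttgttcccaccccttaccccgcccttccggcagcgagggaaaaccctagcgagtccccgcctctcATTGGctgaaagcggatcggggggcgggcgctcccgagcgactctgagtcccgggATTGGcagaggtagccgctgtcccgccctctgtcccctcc
Idi1: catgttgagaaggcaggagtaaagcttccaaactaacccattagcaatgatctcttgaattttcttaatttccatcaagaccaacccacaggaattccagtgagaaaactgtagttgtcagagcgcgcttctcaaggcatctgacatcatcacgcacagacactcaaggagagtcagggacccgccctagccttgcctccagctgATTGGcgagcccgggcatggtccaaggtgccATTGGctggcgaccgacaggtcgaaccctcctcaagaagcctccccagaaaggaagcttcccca
Insig1: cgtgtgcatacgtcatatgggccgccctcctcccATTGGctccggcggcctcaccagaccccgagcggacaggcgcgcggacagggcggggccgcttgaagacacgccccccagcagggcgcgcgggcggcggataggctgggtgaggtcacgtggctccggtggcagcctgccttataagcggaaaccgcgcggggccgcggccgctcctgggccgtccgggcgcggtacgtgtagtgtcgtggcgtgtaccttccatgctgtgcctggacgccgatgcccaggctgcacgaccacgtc
Hmgcs1 held 4 CCAAT matches and 1 SRE-like match, Idi1 2 CCAAT matches and Insig1 1.

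Pdk4, whose kinase shuts off pyruvate dehydrogenase, stood at 140, 310 and 129 CPM in mesenteric and at 26.2, 0, 16.6 and 15.6 CPM in peripheral members, in the order WT and then Xbp1-KO. It was at 131 CPM in the pool of 7 cells, and the fitted log2 difference was 3.20 ± 0.33 (edgeR adjusted p = 7.75e-07). Pla2g7, the platelet-activating factor hydrolase gene, was higher by 2.66 ± 0.43, Lcp2, a signalling adaptor gene, by 3.20 ± 0.51, and Xlr5a by 3.20 ± 0.49. Stbd1 (3.13 ± 0.77), Tnf (2.56 ± 0.42) and Cxcl2 (2.49 ± 0.65) were the remaining ones of the leading 10. Il33 was higher by 0.86 ± 0.17 and Cxcl1 by 1.32 ± 0.22.

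Postn, encoding the matrix protein periostin, stood at 83.7, 31.4 and 87.8 CPM in mesenteric and at 555, 511, 567 and 406 CPM in peripheral members. The groups were far apart, the peripheral pools being higher without overlap as for 5.34% of all genes and 11.1% in either direction, with a log2 difference of −2.85 ± 0.24 (edgeR adjusted p = 2.43e-08). Fxyd6, a regulator of the sodium pump, stood at 46.7, 69.0 and 60.4 CPM against 293, 310, 308 and 351 CPM (−2.48 ± 0.21). Its relative Fxyd1 differed by −3.51 ± 0.47. Slco2a1, the prostaglandin transporter gene, differed by −2.72 ± 0.46. Ccl8 had 0 UMIs in mesenteric members and 45 in peripheral ones, which makes it at least 8.89-fold lower, with a floor of 3 UMIs over the group. Chp2 had 1 and 49 UMIs, a ratio of 29.0 (95% counting interval 4.97 to 1170). Adh1, Fibin, Zg16, Olfml2a and Vwc2 were the other leading peripheral genes, at −4.26 to −2.79.

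**Figure D3:**
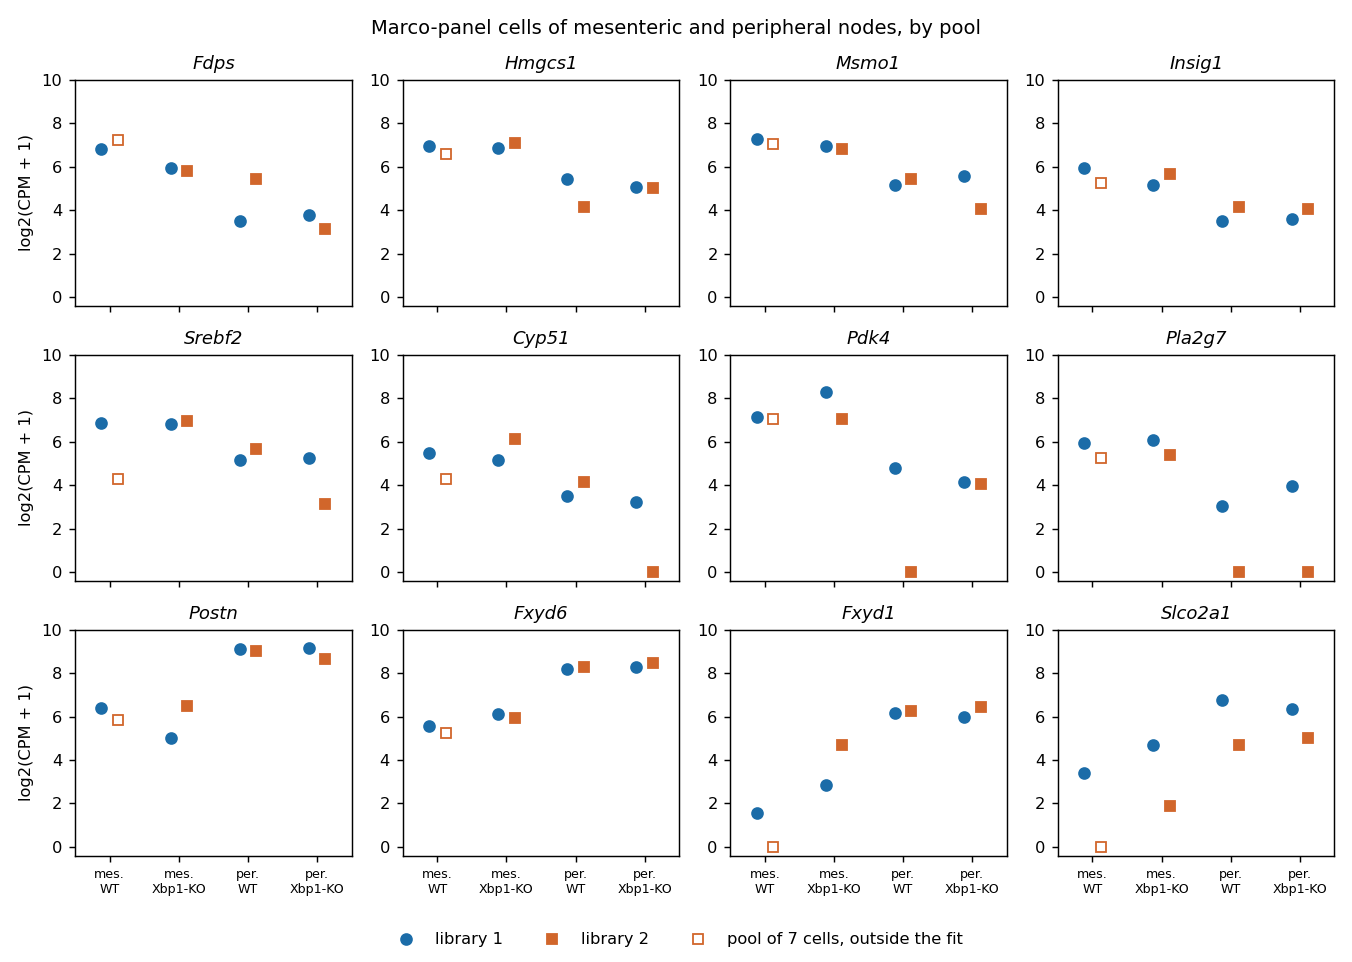
log2(CPM + 1) of 12 genes in Marco-panel cells of each pool, grouped by tissue and genotype. Circles are library 1, squares library 2, and the open square is the WT mesenteric pool of 7 cells that was not fitted. Fdps, Hmgcs1, Msmo1, Insig1, Srebf2, Cyp51, Pdk4 and Pla2g7 are higher in every fitted mesenteric pool, and Postn, Fxyd6, Fxyd1 and Slco2a1 in every peripheral pool.

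Genes of the rule are given as levels with no test, since their UMIs chose the cells. Marco stood at 4858, 5757 and 4365 CPM in mesenteric and at 3284, 3098, 3784 and 3408 CPM in peripheral members, without overlap. Levels of C1ql2 overlapped, at 146, 176 and 143 CPM against 65.5, 209, 58.0 and 15.6 CPM. Bmp2 stood at 1385, 1009.6 and 1075 CPM against 525, 218, 585 and 304 CPM. Mmrn1 stood at 83.7 to 225 CPM in mesenteric and 343 to 670 CPM in peripheral members, and Reln at 19.5 to 46.6 and 67.0 to 133 CPM. Gdf10 was at 44.7 and 31.4 CPM against 164 and 134 CPM in library 1, while in the Xbp1-KO pools of library 2 it was at 60.4 CPM in mesenteric and 62.4 CPM in peripheral members.

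Glycam1 and Madcam1, abundant in high endothelial venules, were 1.68 ± 0.30 and 1.66 ± 0.26 higher in mesenteric members. Glycam1 reached a mean of 22602 CPM in blood endothelial cells against 737 CPM in members, and the part of free RNA in its difference was not tested. Lymphatic floor cells held both genes as well. Glycam1 was detected in 97.2% of floor cells, 66.7% of members and 46.9% of blood endothelial cells. For Madcam1 these shares were 78.8%, 29.0% and 7.84%.

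Members made up a higher share of lymphatic cells in mesenteric than in peripheral nodes in each library, without reaching significance over pools. In library 1 the share was 18.7% (95% Clopper-Pearson interval 15.1 to 22.6) in WT and 29.9% (23.0 to 37.5) in Xbp1-KO mesenteric nodes. It was 10.98% (9.10 to 13.1) and 14.4% (12.5 to 16.4) in peripheral nodes. In library 2 the shares were 10.8% (4.44 to 20.9), 20.4% (15.3 to 26.3), 6.94% (4.09 to 10.9) and 5.42% (3.24 to 8.43) in the same order. Intervals cover counting error only. The mean difference between tissues was 10.5 percentage points (two-sided exact permutation test over 8 pools, p = 0.0857; smallest possible 0.0286). Within library and genotype, mesenteric nodes had the higher share in 4 of 4 pairs. With arrangements drawn within libraries, the exact permutation p was 0.0556, the smallest that this design allows. Between genotypes it was 5.68 points higher in Xbp1-KO nodes (p = 0.3714 by the same exact test over 8 pools, and 0.3889 within libraries). Neither of these 2 comparisons passed the threshold. With cells thinned to 2000 UMIs the tissue difference was 12.3 points (p = 0.0571, exact permutation). Since panel UMIs define the share, more member cells and more panel RNA per cell cannot be told apart.

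**Figure D4:**
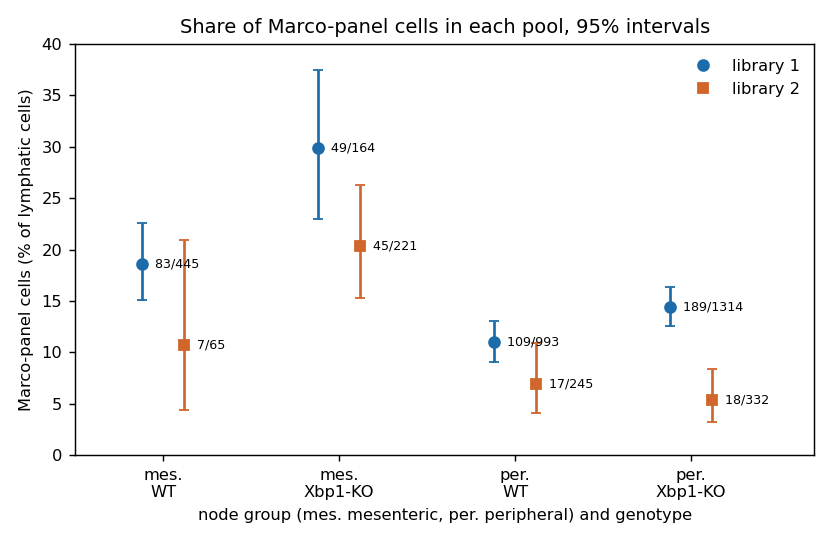
Share of Marco-panel cells among lymphatic cells in each pool, in percent, with 95% Clopper-Pearson intervals and the counts behind each point. Shares lie between 10.8% and 29.9% in mesenteric and between 5.42% and 14.4% in peripheral nodes, so the tissues overlap.

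For genotype, Xbp1 itself was examined first. It stood at 138 CPM in WT mesenteric and at 127 and 109 CPM in WT peripheral members. In Xbp1-KO members it was at 53.3 and 43.9 CPM in mesenteric and at 47.9 and 62.4 CPM in peripheral nodes. Every Xbp1-KO pool was below every fitted WT pool, but the WT mesenteric pool of 7 cells was at 37.4 CPM. Over the fitted pools the genotypes did not overlap for 4.85% of all genes, 2.43% lower and 2.42% higher in Xbp1-KO members. The log2 difference was −1.37 ± 0.22 (SE, 7 pools, edgeR adjusted p = 0.0125). Counts at the 3′ end need not cover a deleted part of the gene, so residual UMIs do not measure functional transcript.

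Few other genes differed. Of 7448 genes, 1 was higher (0.0134%) and 3 lower (0.0403%) in Xbp1-KO members, together 0.0537% of those tested, with 275 at an unadjusted p under 0.05 by edgeR. Hspb1, which encodes a small heat shock protein, was higher by 1.03 ± 0.19 (edgeR adjusted p = 0.0201). Ednrb, the endothelin B receptor gene, differed by −1.12 ± 0.20 (adjusted p = 0.0201), and Gm26802, a long noncoding RNA gene at chr7:19298260-19300770, by −1.45 ± 0.27 (adjusted p = 0.0202). These calls are fragile: with all 8 pools kept 0 genes passed, DESeq2 called 1 (Hspb1), thinned sums 0, library 1 alone 31, and pools of at least 25 cells 15. In library 1 alone, genotype and the split in X- and Y-linked transcripts given below coincide and cannot be told apart, and the pools of at least 25 cells add only 1 pool of library 2. With all pools kept, Xbp1 had −1.28 (edgeR adjusted p = 0.0973), Gm26802 −1.32 (0.546), Ednrb −0.98 (0.763) and Hspb1 0.77 (0.811).

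Ednrb stood at 259 CPM in the fitted WT mesenteric pool and at 37.4 CPM in the other, smaller one. It was at 50.2 and 65.8 CPM in Xbp1-KO mesenteric pools and between 88.4 and 100.5 CPM in the 4 peripheral pools, so the fitted WT mesenteric pool stood far above every other pool. Hspb1 was at 475, 639 and 327 CPM in fitted WT pools, at 1048 CPM in the pool of 7 cells, and at 1295, 1369, 784 and 671 CPM in Xbp1-KO pools. The 16 cytosolic heat shock genes summed to 8623 to 8968 CPM in fitted WT pools and to 9508 to 18257 CPM in Xbp1-KO pools. In other lymphatic cells, with all 8 pools, the genotypes overlapped, at 9048 to 13418.5 CPM (WT) and 9939 to 19151 CPM (Xbp1-KO). Of the 16 genes, 15 had a positive log2 difference in members (median 0.49, against 0.01 for all genes), but Hspb1 was the one that passed.

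**Figure D5:**
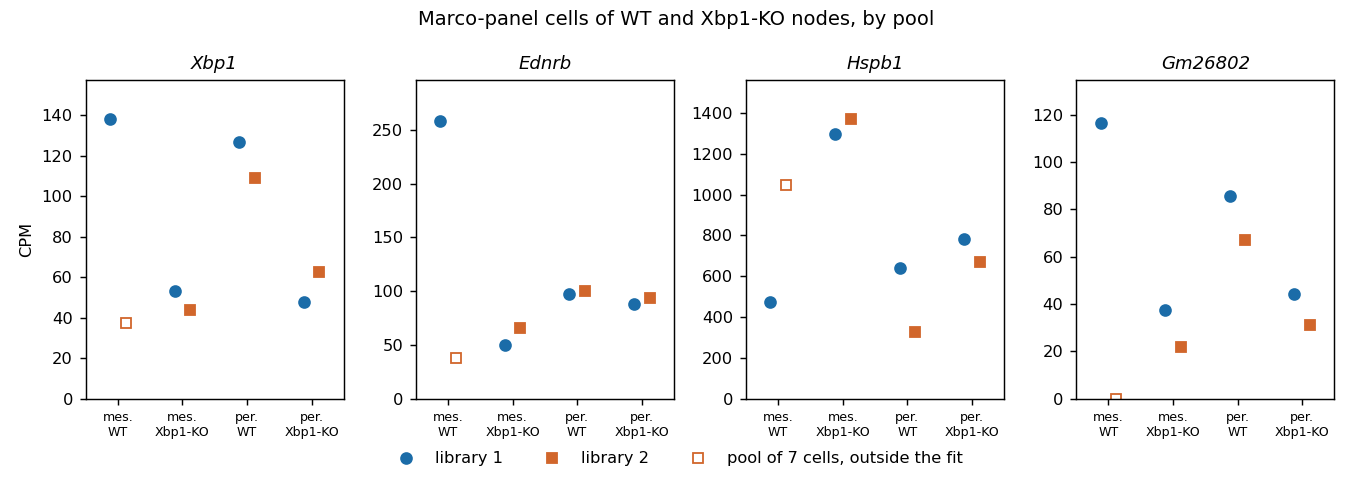
CPM of Xbp1, Ednrb, Hspb1 and Gm26802 in Marco-panel cells of each pool, on linear axes from 0, grouped by tissue and genotype. Circles are library 1, filled squares library 2, and the open square is the unfitted pool of 7 cells, which lies at 37.4 CPM for Xbp1 and Ednrb and far from the other WT mesenteric pool.

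Targets of XBP1 in the endoplasmic reticulum, the chaperones, translocon subunits and degradation factors of the secretory pathway, were followed by a list of 40 genes. None of 38 tested was called, 6 had a positive and 32 a negative log2 difference, and the median was −0.16 against 0.01 for all genes. Of 34 ER to Golgi transport genes 0 were called, with 22 negative and a median of −0.09. Of 9 sensors and CREB3 family genes only Xbp1 passed. None of the 20 tested scavenger receptor genes was called. Beside the lists with 0 calls, DESeq2 called 1 gene in all, and 275 genes had an unadjusted edgeR p under 0.05.

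Within peripheral nodes 0 genes passed between genotypes (156 at an unadjusted p under 0.05 by edgeR, 0 by DESeq2). Within mesenteric nodes 3 did, 0.0403% of those tested (303 unadjusted, 2 by DESeq2). Hspb1 (1.55 ± 0.29) and Dnajb1, a co-chaperone gene (1.47 ± 0.26), were higher, 0.0269% of genes, and Ednrb (−2.08 ± 0.29) was lower, 0.0134%. Dnajb1 was at 280 CPM in the fitted WT pool, 337 CPM in the pool of 7 cells and 743 and 749 CPM in Xbp1-KO pools. It passed with all pools kept (1.39, edgeR adjusted p = 0.0442), when it was the 1 gene called. The difference of the genotype effect between tissues was called for 0 genes by edgeR (211 unadjusted), 0 by DESeq2 and 1 with the library as replicate block.

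Xist and Ddx3y, X- and Y-linked genes, split the member pools by library and genotype at once. Xist was at 1028 and 1199 CPM in the Xbp1-KO pools of library 1 and at 899 and 988 CPM in the WT pools of library 2. In the 4 other pools it was at 0 to 36.4 CPM. Ddx3y showed the reverse, at 115 to 156 CPM in those 4 pools and at 0 to 0.92 CPM in the pools with Xist. The direction of this split is opposite in the 2 libraries, and its part in the genotype results was not tested.

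Effects in members were finally set against those in other lymphatic cells of the same pools. The genotype effect differed for 4 of 10506 genes (0.0381%). It was higher in members for Fabp4, Tmsb4x and Malat1 (0.0286%) and lower for Dcn (0.00952%). The tissue effect differed for 68 (0.647%), 26 in the direction of mesenteric members (0.247%) and 42 in the other (0.40%). Without the pool block, and by DESeq2, the genotype count was 0. The tissue count was 4 in both of these settings, 0 in the direction of mesenteric members and 4 in the other. Fxyd6 was among the called genes (−2.02 ± 0.22, edgeR adjusted p = 4.57e-09; by DESeq2 −2.01, adjusted p = 0.00021). It stood at a mean of 58.7 and 315 CPM in mesenteric and peripheral members, and at 374 and 600 CPM in other lymphatic cells. Of the 68 genes 8 belong to the rule, Ackr4 and Nts among them, and their values in members are bounded by it.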

How the data were processed

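Sorted lymph-node endothelial cells were profiled in 2 droplet libraries with 4 hashtags each, which gives 8 pools. The deposited values are raw UMI counts per gene and barcode, which the authors made with Cell Ranger, of version 6.0.1 as the file headers state and 6.1 (with mm10) per the submitters' processing notes. The labels name kit version 2 and 3′ version 3 chemistry in different places. The annotation is not given in the sources used here, and 99.6% of the 32285 gene IDs were found in GENCODE M21. Library 1 holds 33024170 and library 2 14744778 gene UMIs. No cell clustering was used.

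Kept cells had at least 500 genes, at most 10% mitochondrial UMIs, and a leading hashtag of at least 10 UMIs and 3 times the next. Doublets beyond mixed tags were kept in the main analysis. Scrublet (scanpy 1.11.5) marked 3.11% of barcodes in library 1 and 0.344% in library 2, where it cannot be said to have worked, and 13 members. The libraries shared 3 barcodes, none of them a member. Raw counts were summed per pool and class, and pools with under 10 member cells were left out. Sums were tested in R 4.3.3 with edgeR 4.0.16 (TMM factors, filterByExpr at a minimum count of 10, quasi-likelihood test, Benjamini-Hochberg adjustment over all genes tested, threshold 0.05). Comparisons within members had 1 mean per tissue and genotype, and comparisons between classes had the pool as a block and did not test the 22 genes that define the classes, except for differences of effects. Member sums held 119444 to 1085548 UMIs in the fitted pools. CPM use the total UMIs of a sum, without TMM factors. Fold changes are log2, errors are SE.

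The members and gene lists were chosen with earlier results of these data known, and the sterol list and the setting with all pools kept were added after values had been seen. Named genes are the 10 (within members), 15 (between classes, at least 50 CPM and 1 direction in every pool) or 5 (differences of effects) with the greatest change each way, where under 5 passed also the smallest p, and examples from lists. Xbp1 was followed under the alternatives in the genotype comparisons and the panel genes in the genotype and tissue comparisons, a restriction made after results had been seen.

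Alternatives were DESeq2 1.42.0, its size factors, no filter, thinning, leaving out a library, larger pools, the library as a block, stricter rules, and leaving out cells with macrophage UMIs or Scrublet doublets. A library is 1 droplet run per the labels, so it pairs its pools. The library differences of the 4 groups correlated at −0.03 to 0.092 over 7448 genes. The strand of the printed promoters was checked against GENCODE transcripts for Marco, C1ql2, Idi1 and Insig1; for Flrt3 and Hmgcs1 the RefSeq start lies outside the transcripts used, and the table's strand was taken. Results for some genes are not reported here. Scripts were tested on simulated data.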

Additional observations from a re-analysis of the deposited data

Results flagged for a closer look

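The genotype effect in Marco-panel cells differed from that in other lymphatic cells, by the class-by-genotype term with the pool as a block, for 4 genes. The difference was 1.20 log2 units for Fabp4, a fatty acid binding protein gene, 1.09 for Tmsb4x, encoding thymosin beta 4, 0.40 for Malat1, a nuclear noncoding RNA, and −1.96 for Dcn, encoding decorin. Mean levels of Fabp4 were 261 CPM in Xbp1-KO and 137 CPM in WT members, and 1021 and 1252 CPM in other lymphatic cells. Dcn stood at 42.9 and 65.3 CPM in members and at 107 and 69.3 CPM in the others. Without the pool block 0 of these calls remained. The Dcn difference shrank when either library was left out and changed sign without library 1, with values in the closing paragraph.

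The tissue effect differed between the classes, by the class-by-tissue term, for 8 genes outside the rule that were also the leading ones. The difference was 3.07 log2 units for Hpgd, which degrades prostaglandins, 2.31 for Selp, 2.15 for Cxcl2, 1.89 for Fcgr2b and 1.52 for Plek. It was −5.38 for Chp2, −5.19 for S100a6 and −5.08 for Nsg1. Selp stood at means of 74.6 and 17.0 CPM in mesenteric and peripheral members and at 29.9 and 26.6 CPM in other lymphatic cells. Plek stood at 104 and 25.1 CPM in members and at 16.7 and 10.7 CPM in the others. Chp2, S100a6 and Nsg1 had few or 0 UMIs in mesenteric members, so their fitted differences depend on the prior count and are no bounds. Without the pool block, and by DESeq2, 0 of these 8 calls remained.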

How the results depend on the processing

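The genotype calls in Marco-panel cells depended on the processing. Against 4 main calls, both tissues together gave 1 by DESeq2, 15 without the filter, 0 after thinning, 15 in pools of at least 25 cells, 7 at a hashtag ratio of 5, 0 with all pools kept and 31 without library 2, where genotype cannot be told apart from the X- and Y-linked split. Against 3, mesenteric nodes gave 21 without the filter, 0 after thinning, 25 in larger pools, 1 without cells carrying macrophage UMIs and 1 with all pools kept. Against 0, peripheral nodes gave 6 without the filter, 2 after thinning and 4 in larger pools, and the interaction 13 without the filter, 5 in larger pools, 1 at a hashtag ratio of 5 and 1 with the library as replicate block. The difference of genotype effects between classes (4) gave 0 by DESeq2, 7 without the filter, 1 after thinning, 0 without the replicate block, 7 at a panel sum of 3, 2 with all pools kept and 7 without library 2.

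The tissue comparison (141 calls) gave 38 by DESeq2, 56 after thinning and 298 without library 2; in WT cells (47) it gave 6, 17 and, without the filter, 81. The difference of tissue effects (68) gave 4 by DESeq2, 4 after thinning and 4 without the replicate block. Members against other lymphatic cells (2639) gave 878 after thinning and 715 to 2266 without 1 library; against Ptx3 cells (1055) 640 by DESeq2, 559 after thinning and 276 to 805 without 1 library, the lower values being those without library 1. With the library as replicate block, the tissue count was 152 and the genotype count 5, of which 4 were the main calls. Without cells carrying macrophage UMIs the tissue and genotype counts were 126 and 4.

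Signs reversed for 8 of the values followed over 359 pairs of gene and comparison. A gene followed in several comparisons counts once in each. Lum had 1.55 by DESeq2. Without library 1 and without library 2 respectively, Flrt3 had −0.080 and 0.23 (genotype), C1ql2 −3.72 and 0.075 (genotype), Gdf10 0.013 and −1.96 (tissue), Dcn 0.00014 and −0.44 (difference of genotype effects), S100a6 4.66 and −3.27 and Ifi27l2a 0.20 and −0.61 (difference of tissue effects), and with all pools kept Marco had −0.0020 (genotype). Of these, Marco, Flrt3, C1ql2 and Gdf10 are genes of the rule. Of the other values, 3903 kept direction and side of the threshold, 431 lost and 20 gained significance, and 45 untested ones moved by more than 1 SE. The causes were not tested, except that thinning and fewer pools remove counts. The differences in shares kept their direction in all settings. Their p-values could not fall under 0.05 with the library as replicate block (smallest possible 0.0556, reached by the tissue difference) or without 1 library (smallest possible 0.3333), so these say nothing about stability. Without library 1 or 2, the effects within 1 tissue, the interaction and the WT tissue effect could not be fitted, and without library 1 the genotype and tissue effects had no test. Pools of 17 to 189 cells limit what can be seen at low levels. The WT mesenteric group rests on 1 fitted pool, assumed to vary like the others.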
